A study of Mus musculus with 4 samples.

Results

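The elements described here lie at 10 genes of the circadian clock and its output in mouse T helper 17 (Th17) cells, CD4 T cells named for the cytokine interleukin-17 that they secrete. An element belongs to a gene when, on build mm10, its centre lies within 100 kb of a protein-coding transcription start site (TSS) of that gene and no other coding TSS of GENCODE release M21 is nearer. By this rule, which uses position and no measured value, 27 of the 24232 elements in the authors' deposited table belong to the 10 genes, and each gene holds at least 1. All coding genes together hold 22068 such linked elements.

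The assay was STARR-seq, which clones genomic fragments into the transcript of a reporter plasmid, so that the RNA made from each fragment measures how strongly it drives transcription. The 4 biological replicates form 1 group of primary C57BL/6NJ cells, labelled as activated Th17 cells and transiently transfected so that the plasmid is held as an episome. Per the labels, each replicate had for 3 days anti-CD3e (0.25 µg/mL), anti-CD28 (1 µg/mL), anti-interleukin-4 (2 µg/mL), anti-interferon-gamma and interleukin-6. The replicates share 1 donor identifier, the age is given as unknown, and the labels do not say whether the cells came from separate animals. The fragment sits outside its chromosome, so the values describe a sequence on a plasmid and not the gene in place. The table holds no expression values, and the cell type could not be checked against markers.

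The authors' deposited table gives 1 log2 fold change, p-value and q-value per element over all replicates, without values per replicate. No standard deviation can therefore be given, and the sequencing depth is unknown. Base and direction of the fold change are not stated; it is read here as log2 of reporter RNA over input. An element is called higher where the value is positive and lower where it is negative. Under the opposite direction the terms would change places throughout. Only elements with a q-value under 0.01 are listed, which is 21.1% of the 114722 tests that the p- and q-values imply.

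In the clock, ARNTL (also called BMAL1) pairs with CLOCK and activates genes through the E-box, and the products of the Per genes and of Bhlhe41 act back on that step. The nuclear receptors REV-ERB alpha and beta, encoded by Nr1d1 and Nr1d2, repress genes such as Arntl and Nfil3 through a site that they share with the ROR receptors. The activators DBP, TEF and HLF and the repressor NFIL3 compete for the D-box. In T helper cells REV-ERB receptors and NFIL3 have been described as regulators of Th17 differentiation.

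Of the 27 elements, 11 were higher and 16 lower. The share of higher elements was 40.7% (exact binomial 95% interval 22.4% to 61.2%, counting error only), beside 45.7% of all linked elements. The log2 fold change had a median of -0.77 in the 27 and of -0.77 in all linked elements. The 95% interval of the former, from order statistics, was -1.13 to 0.97. Taken by position, 3 of the 13 elements within 1 kb of a TSS (promoter-proximal) were higher (23.1%, 5.04% to 53.8%), beside 13.3% of all proximal elements. Nr1d1 holds 2 of the 3, which lie 100 bp apart and are not independent. Without Nr1d1 the share was 9.09%, below that of all proximal elements. It was 14.3% among elements with an absolute log2 fold change of 1 or more. Of the 14 elements farther out (distal), 8 were higher (57.1%, 28.9% to 82.3%), beside 70.3% of all distal elements. Each background share lies inside the interval of the clock genes.

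The elements were unevenly spread over the genes. Nfil3 held 5, Arntl and Bhlhe41 4 each, Nr1d1 and Tef 3 each, Nr1d2, Per1 and Hlf 2 each, and Dbp and Per2 1 each. All coding genes with an element held 1.91 on average, and 52.9% of 21829 coding genes had any. Higher and lower elements occurred together at 6 genes, whereas Per2, Dbp, Tef and Hlf had lower ones alone. The neighbourhood limits what can be assigned. Within 100 kb of the Per1 start sites another 14 elements were nearer to other genes, and around Dbp another 5, whereas none lay around Arntl, Hlf and Bhlhe41.

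**Figure D1:**
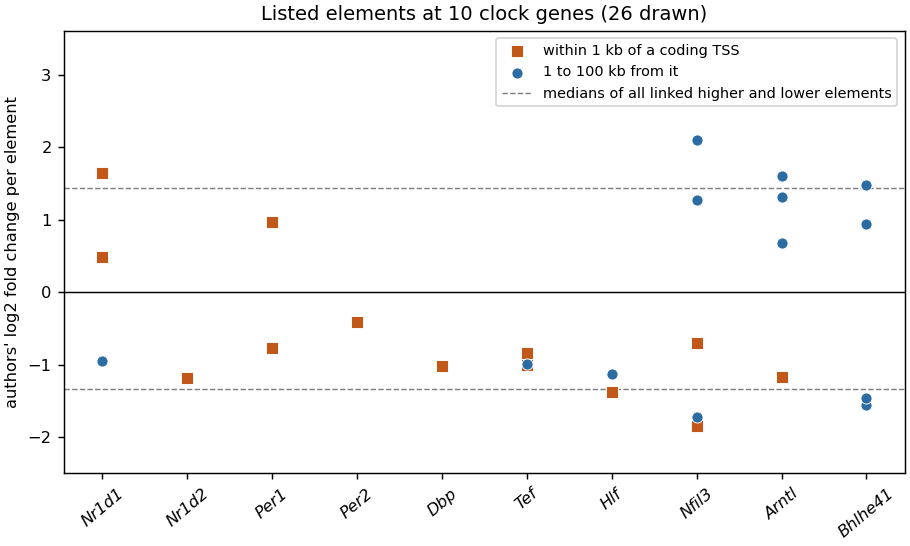
Log2 fold change (vertical axis, the authors' deposited value) of 26 of the 27 elements by gene; squares are within 1 kb of a coding TSS, circles 1 to 100 kb from it, and dashed lines mark the medians of all linked higher (1.44) and lower (-1.33) elements. The Nfil3 intronic element stands highest of those drawn, at 2.10, and the squares of Nr1d1 and Per1 are the proximal ones above 0.

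Sequences of the elements on which the results turn are shown first. Gene-strand sequence of mm10 is given from 5′ to 3′, read from the GRCm38 genome of RefSeq. Capitals mark matches, on either strand, to the E-box CACGTG, the E′-box CACGTT, the D-box (TTATGTAA, TTACGTAA or TTATGCAA), the ROR element (RORE) shared by REV-ERB and ROR receptors, or, in the last group, the AP-1 site TGANTCA. A match is a description of letters and not a bound site.

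The first pair comes from Per1, the only gene whose start sites carried E-boxes in a higher and in a lower element. The first stretch, from the higher element at the 5′ start (chr11:69094868-69095087, plus strand), holds 2 E-boxes. The second, from the lower element at an internal start (chr11:69098771-69098944, plus strand), holds an E-box and a D-box.

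Per1 5′ start: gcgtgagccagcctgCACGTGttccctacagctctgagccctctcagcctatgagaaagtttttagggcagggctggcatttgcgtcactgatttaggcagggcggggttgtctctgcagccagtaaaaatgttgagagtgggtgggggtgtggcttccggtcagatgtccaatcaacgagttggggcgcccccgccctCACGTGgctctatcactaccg
Per1 internal start: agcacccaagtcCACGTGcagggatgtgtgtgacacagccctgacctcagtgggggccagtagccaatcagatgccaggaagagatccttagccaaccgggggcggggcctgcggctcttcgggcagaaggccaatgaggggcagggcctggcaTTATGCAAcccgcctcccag

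The next sequences come from lower elements that hold several clock sites or a RORE. They are the paired E-boxes in the intronic element of Nr1d1 (chr11:98773844-98773894, minus strand), the stretch with 3 E-boxes and a D-box downstream of the Nr1d2 start (chr14:18238510-18238693, minus strand) and the distal Hlf element with 3 E-boxes, an E′-box and a RORE (chr11:90418024-90418224, minus strand). The RORE of Dbp (chr7:45704875-45704925, plus strand) and of Arntl (chr7:113207528-113207556, plus strand) and the E′-box at the Per2 start (chr1:91459304-91459329, minus strand) follow. Last come the 2 D-boxes of Nfil3 (chr13:52980564-52980727, minus strand), 491 and 365 bp downstream of its TSS. For Nr1d2 and Nfil3 the label start names the element, which covers the start, and the printed stretch lies downstream of it.

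Nr1d1 intron: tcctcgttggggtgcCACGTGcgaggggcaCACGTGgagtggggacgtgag
Nr1d2 5′ start: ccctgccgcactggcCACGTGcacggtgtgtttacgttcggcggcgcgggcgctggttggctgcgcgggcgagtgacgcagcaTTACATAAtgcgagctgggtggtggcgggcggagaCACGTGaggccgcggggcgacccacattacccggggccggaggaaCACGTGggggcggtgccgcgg
Hlf distal: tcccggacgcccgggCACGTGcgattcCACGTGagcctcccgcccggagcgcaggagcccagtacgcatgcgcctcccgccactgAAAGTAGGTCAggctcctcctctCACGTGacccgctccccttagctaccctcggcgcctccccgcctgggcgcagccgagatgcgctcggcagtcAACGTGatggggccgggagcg
Dbp start: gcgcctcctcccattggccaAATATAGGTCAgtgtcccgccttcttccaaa
Arntl start: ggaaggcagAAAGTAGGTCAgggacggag
Per2 start: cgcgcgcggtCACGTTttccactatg
Nfil3 start: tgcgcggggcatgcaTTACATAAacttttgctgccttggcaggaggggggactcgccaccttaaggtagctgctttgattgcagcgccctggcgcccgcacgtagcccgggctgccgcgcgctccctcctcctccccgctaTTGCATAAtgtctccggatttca

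The last group shows 2 whole higher elements for contrast: the one upstream of Nr1d1 (chr11:98775851-98776000, minus strand) and the intronic one of Nfil3 (chr13:52973501-52973800, minus strand). Neither holds a clock site of the kinds above. The labels give a size range of 200 to 400. If this is the fragment length in bp, fragments behind the 150 bp Nr1d1 element reached beyond the printed letters. A missing match in so short an element then does not describe all the sequence assayed.

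Nr1d1 upstream: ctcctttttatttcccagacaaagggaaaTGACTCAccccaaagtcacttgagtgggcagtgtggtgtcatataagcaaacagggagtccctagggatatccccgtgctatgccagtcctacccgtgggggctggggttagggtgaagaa
Nfil3 intron: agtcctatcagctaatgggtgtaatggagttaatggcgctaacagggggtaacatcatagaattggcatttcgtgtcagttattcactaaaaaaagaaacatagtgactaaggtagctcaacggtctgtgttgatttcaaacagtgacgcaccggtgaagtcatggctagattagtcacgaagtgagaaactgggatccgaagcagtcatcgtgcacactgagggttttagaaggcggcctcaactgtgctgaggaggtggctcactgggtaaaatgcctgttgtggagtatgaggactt

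The activator gene Arntl (ENSMUSG00000055116.8, chr7:113207465-113314126, plus strand) had a lower element at its start and 3 higher ones away from it. The authors' deposited table lists the start element (chr7:113206901-113207825, 925 bp) at -1.17 with q = 3.68e-06. It holds the RORE printed above, centred 77 bp downstream of the nearest TSS. The intronic element (chr7:113262976-113263350), 28540 bp downstream of the nearest TSS, was listed at 1.61 (q = 0.000303) in the authors' deposited table. Repeats cover 97.1% of that element and it has 3 near-identical copies elsewhere on the chromosomes, so its place is uncertain. Both upstream elements were higher in the authors' deposited table, with 1.32 at 60665 bp (chr7:113146726-113146875, q = 0.000266) and 0.68 at 67152 bp (chr7:113140001-113140625, q = 0.00349). Each holds an AP-1 match. Both lie nearer to the start of the noncoding gene 4930543E12Rik, at 4777 and 1702 bp, than to that of Arntl, and the latter is the farthest of all 27 from its gene.

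At Nr1d1 (ENSMUSG00000020889.11, chr11:98767932-98775333, minus strand), which encodes the heme-binding repressor REV-ERB alpha, the upstream elements were higher and the intronic one lower. In the authors' deposited table the element 592 bp upstream of the TSS (chr11:98775851-98776000, 150 bp) had a log2 fold change of 1.65 with q = 1.11e-09, a 3.13-fold difference. A 50 bp element at 392 bp upstream (chr11:98775701-98775750), 100 bp away from the former, had 0.48 with q = 0.00494 in the authors' deposited table. At that gap the upstream elements can share fragments, so they are not independent. Both have a GC content of 52.0%, and among proximal elements of that GC decile 49.9% of 379 were higher. The intronic element at 1395 bp (chr11:98773651-98774225, 575 bp) was listed at -0.95 (q = 1.31e-05) in the authors' deposited table. It carries 3 E-boxes, a D-box and an AP-1 match, at a GC content of 62.6%. Direction thus changed within 2 kb of 1 start site, with the E-box cluster in the lower element.

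Its paralogue Nr1d2 (ENSMUSG00000021775.11, chr14:18204054-18239127, minus strand), the REV-ERB beta gene, had a lower element over its start. The 1250 bp element there (chr14:18238151-18239400), the longest of the 27, was lower at -1.18 with q = 1.1e-06 in the authors' deposited table. It holds the 3 E-boxes and the D-box printed above, between 336 and 484 bp downstream of the nearest TSS, and its GC content of 69.9% falls in a decile where 0.80% of 1996 proximal elements were higher.

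The Period genes encode repressors of CLOCK and ARNTL, and both are textbook E-box targets. At Per1 (ENSMUSG00000020893.17, chr11:69095217-69109960, plus strand) the element at the 5′ start (chr11:69094726-69095300, 575 bp) was higher in the authors' deposited table, at 0.97 with q = 3.71e-08, or 1.96-fold. Its E-boxes lie 332 and 148 bp upstream of the TSS. In its GC decile, with a GC content of 56.9%, 27.7% of 1055 proximal elements were higher. The element at the internal Per1 start, 3658 bp downstream of the 5′ end (chr11:69098751-69099000, 250 bp), was lower at -0.77 with q = 2.57e-05 in the authors' deposited table. Its E-box lies 163 bp and its D-box 20 bp upstream of that start. The GC content there was 65.6%, where 7.03% of 1935 proximal elements were higher.

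Per2 (ENSMUSG00000055866.9, chr1:91415982-91459324, minus strand) had 1 element, over its start (chr1:91459051-91459875, 825 bp). In the authors' deposited table it was lower at -0.41 with q = 0.00231, the smallest size of change among the 27. It holds the E′-box 8 bp downstream of the annotated TSS and 2 D-boxes, 121 bp upstream and 226 bp downstream.

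Bhlhe41 (ENSMUSG00000030256.11, chr6:145858243-145865558, minus strand), whose product DEC2 binds E-boxes as a repressor, was the only one of the 10 genes without a proximal element. The authors' deposited table lists 2 lower elements centred in its coding exons, at -1.56 (chr6:145863526-145863625, q = 6.52e-05) and -1.46 (chr6:145863101-145863500, q = 0.000705). They are 25 bp apart, so they are not independent, and both lie nearer to a start of the unclassified transcript Gm43909. Both have a GC content of 75.0% or more, and 3.70% of 216 distal elements in that decile were higher. Upstream of the gene the authors' deposited table lists 2 higher elements 325 bp apart, at 1.48 (18230 bp, chr6:145883676-145883900, q = 3.31e-05) and 0.94 (17567 bp, chr6:145882901-145883350, q = 6.84e-05). The latter has an AP-1 match and the lowest GC content of the 27, 38.4%.

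The genes of the D-box activators DBP, TEF and HLF, known as PAR bZIP factors, had lower elements alone. Of the 6, 4 were proximal, where 13.3% of all linked elements were higher, and 2 distal, where 70.3% were. All 6 lay between -1.38 and -0.84 in the authors' deposited table. The Hlf start and internal Tef start elements lie in GC deciles where 3.06% and 0.80% of proximal elements were higher. The shares were 27.7% and 12.7% for the Dbp and 5′ Tef start elements. In the deciles of the distal Hlf and Tef elements, 14.4% and 43.0% of distal elements were higher. For Dbp (ENSMUSG00000059824.12, chr7:45705088-45710203, plus strand) the authors' deposited table lists the start element (chr7:45704726-45705425, 700 bp), at -1.01 with q = 3.04e-06. Its RORE is centred 188 bp upstream of the TSS.

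For Tef (ENSMUSG00000022389.15, chr15:81802421-81826863, plus strand) the authors' deposited table lists -1.01 at the 5′ start (chr15:81802401-81803000, q = 0.000667), -0.84 at an internal start (chr15:81810826-81811850, q = 1.89e-05) and -0.99 at 19429 bp from the nearest TSS, beyond the 3′ end of the gene (chr15:81831276-81831900, q = 0.000291). The internal start element holds 3 E-boxes, 469, 358 and 136 bp upstream of the nearest TSS, and the 5′ start element holds 1. The downstream element has no clock site, and 43.0% of distal elements in its GC decile were higher.

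Hlf (ENSMUSG00000003949.16, chr11:90336536-90390895, minus strand) had a start element at -1.38 (chr11:90390576-90391125, q = 0.000143) and a distal one 27130 bp upstream at -1.13 (chr11:90417751-90418300, q = 0.00992) in the authors' deposited table. The latter is the nearest of the 27 to the table's limit for q. It is also the richest in clock sites, with 3 E-boxes, an E′-box and a RORE within 201 bp. The start element has no clock site but a full CRE (TGACGTCA) 27 bp upstream of the TSS.

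Nfil3 (ENSMUSG00000056749.7, chr13:52967209-52981073, minus strand), the D-box repressor gene, held values far apart on both sides of 0. Its intronic element 7423 bp downstream of the TSS (chr13:52973501-52973800, 300 bp) was listed at 2.10, or 4.28-fold, with q = 8.33e-14 in the authors' deposited table, the smallest q of the 27. It has no match to any of the 15 recognition sequences searched, which says only that those letters are not in it. At the start the authors' deposited table has the lowest value of the 27, -1.84 with q = 1.9e-09 (chr13:52980551-52981100, 550 bp), in an element with 2 D-boxes at 491 and 365 bp downstream of the TSS. A 75 bp element at a gap of 75 bp from it (chr13:52980401-52980475) was at -0.70 with q = 0.00324 in the authors' deposited table. So close together, this pair is not independent. Upstream, the authors' deposited table lists 1.27 at 17715 bp (chr13:52998551-52999025, q = 8.39e-08), with an AP-1 match and a full CRE, and -1.72 at 29690 bp (chr13:53010576-53010950, q = 0.00759). The last has a GC content of 44.8%, and 86.2% of 2113 distal elements in that decile were higher. Repeats cover 42.4% of it. Lower elements occur in that decile too, so a single one is not read as unusual. Both upstream elements are nearer to the noncoding gene Gm33424 than to Nfil3.

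**Figure D2:**
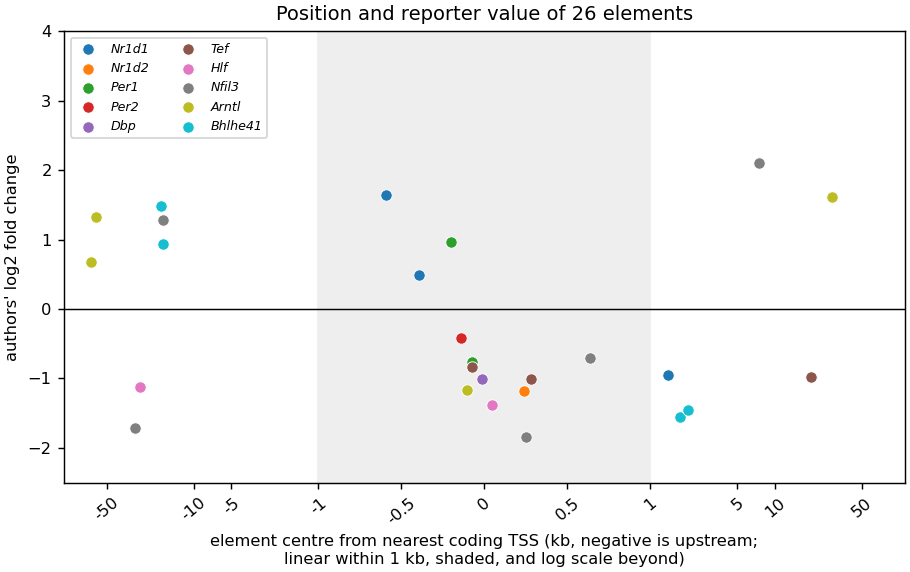
Log2 fold change (vertical axis, the authors' deposited value) against the distance in kb of each element's centre from the nearest coding TSS of its gene, negative upstream; each point is 1 of 26 elements, coloured by gene, and the shaded band within 1 kb is linear while the rest is on a log scale. The 3 points above 0 in the band belong to Nr1d1 and Per1 and all lie upstream, and all elements drawn from the TSS to 2002 bp downstream are lower.

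An E-box, E′-box, D-box or RORE occurred in 11 of the 27 elements (40.7%, beside 23.6% of all linked elements), at every gene but Bhlhe41. By position, 9 of the 13 proximal elements held such a site (69.2%, beside 31.2% of all proximal ones). Of the 14 distal elements 2 did (14.3%, beside 17.9%), so only the proximal share exceeded its background. Of the 11 with such a site, the Per1 5′ start element alone was higher (9.09%, 0.23% to 41.3%). Of the 16 without such a site 10 were higher (62.5%, 35.4% to 84.8%). The median GC content was 65.6% in the 11 and 52.0% in the 16, and 9 of the 11 were proximal. Of the 9 proximal ones 1 was higher (11.1%), beside 11.8% of all linked proximal elements with a clock site, so this count is near its background. The remaining ones, the Nr1d1 intronic and distal Hlf elements, were both distal and lower, beside 65.7% of all distal elements with a clock site. In the GC deciles of these elements, however, only 24.8% and 14.4% of all distal elements were higher. Without a clock site 13.9% of all proximal and 71.3% of all distal elements were higher.

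Single sites were counted next, each beside its share of all linked elements. E-boxes occurred in 7 of 27 (25.9%, beside 12.6%) and E′-boxes in 2, those of Per2 and the distal Hlf element (7.41%, beside 10.5%). D-boxes occurred in 5 of 27 (18.5%, beside 2.47%), at Nr1d1, Nr1d2, Per1, Per2 and Nfil3, and every one of these elements was lower. A RORE occurred in 3 (11.1%, beside 0.88%), at Arntl, Dbp and Hlf, all lower as well. All but 1 of the D-box elements and 2 of the RORE elements are proximal. Over all linked proximal elements 18.1% of 216 with a D-box and 22.2% of 36 with a RORE were higher, and over all distal ones 78.4% of 328 and 91.1% of 158. At least 3 E-boxes occurred in 4 elements, those of Nr1d1, Nr1d2, Tef and Hlf (14.8%, beside 0.28%). All 4 were lower, as were all but 10 of the 61 such elements among all linked ones. Of those 61, however, 51 were proximal, with 7 higher, and 10 were distal, with 3 higher. Of the 4 at the clock genes, 2 were proximal and 2 distal.

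Element length enters these shares, since a longer element has more room for a match. In the central 300 bp of the 19 elements that are at least that long, an E-box occurred in 5 (26.3%, beside 6.68% of 18149), an E′-box in 2 (10.5%, beside 5.42%), a D-box in 3 (15.8%, beside 1.26%) and a RORE in 1 (5.26%, beside 0.53%). RefSeq promoter windows of 300 bases, from 250 before to 50 after a start on GRCm38.p6, were matched for 9 of the genes, with 12 windows in all. An E-box occurred in 4 of the 12, at Per1, Tef and Bhlhe41, beside 7.15% of 32851 windows of all genes. An E′-box occurred in 1, at Nr1d1 (4.68% of all), a D-box in 1, at Per1 (1.78% of all), and a RORE in 1, at Arntl (0.38% of all).

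AP-1 is the dimer of FOS and JUN proteins that T cell activation induces. Its matches occurred in 7 of the 27 elements (25.9%, beside 30.5%), and 6 of the 7 were higher, the Nr1d1 intronic element being the exception. Of the 7, 6 were distal and 5 of those were higher (83.3%), beside 86.2% of all linked distal elements with a match. This count is near its background. The only proximal one was higher, beside 32.6% of all linked proximal elements with a match. The median GC content was 46.9% in the 7 and 63.2% in the 20 without a match. In the central 300 bp windows 2 of 19 held one (10.5%, beside 22.4% of all windows). None of the 27 held a match to the IRF, CTCF or glucocorticoid receptor sequences, which occurred in 9.86%, 3.41% and 0.018% of all linked elements. Shares that low give few or no matches in 27 elements, so nothing is read from the zeros.

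**Figure D3:**
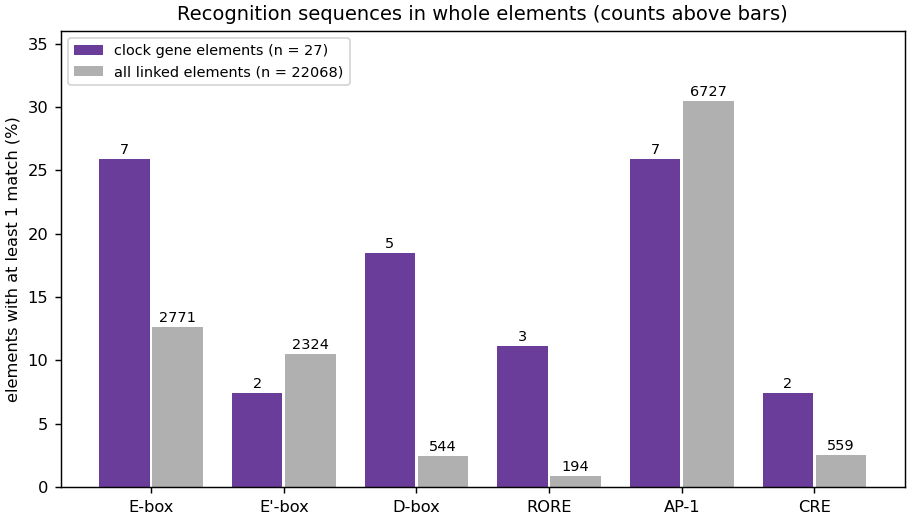
Share of elements (vertical axis, percent) with at least 1 match to each recognition sequence, for the 27 clock gene elements (purple) and all 22068 linked elements (grey); numbers above the bars count elements. D-box and RORE bars of the clock genes, at 18.5% and 11.1%, exceed the grey bars at 2.47% and 0.88%, and the AP-1 bars stand at 25.9% and 30.5%.

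Base composition split the 27 elements almost as direction did. The 11 higher elements had a GC content between 38.4% and 56.9% (median 46.9%), and the 16 lower ones between 44.8% and 75.2% (median 65.7%). The highest GC content of a higher element, 56.9%, was taken as a cut, so the 14 elements above it are lower by construction. Of the 13 at or below it, the Tef downstream element and the upstream Nfil3 element at 44.8% were lower. The median length was 300 bp for the higher and 562 bp for the lower elements, and the median ratio of observed to expected CpG 0.31 and 0.71. Over all linked elements the share of higher ones fell from 89.0% in the lowest GC decile to 1.08% in the highest, the same direction as at the clock genes.

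**Figure D4:**
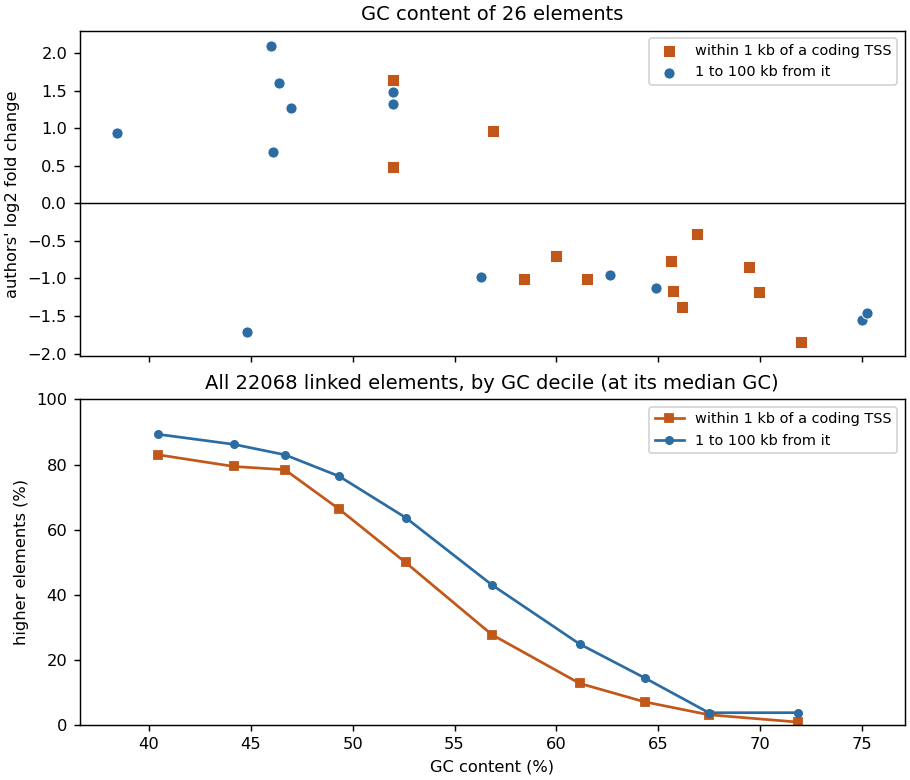
Top, log2 fold change (the authors' deposited value) against GC content in percent for 26 of the 27 elements, squares within 1 kb of a coding TSS and circles beyond. Bottom, the share of higher elements (percent) among all 22068 linked elements in each GC decile. Points are drawn at the decile's median GC for the same position classes. The highest GC content of a clock gene element above 0 is 56.9%.

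Other genes of the clock were set beside the 10 by the same rule, from a list of 24 that covers the partner and paralogue genes Clock, Npas2 and Arntl2, the cryptochrome repressors, the ROR receptors, kinases, ubiquitin ligase genes and cofactors. Of these, 21 had 62 elements, and 32 were higher (51.6%, 38.6% to 64.5%, beside 45.7% of all linked elements). Rorb, Csnk1d and Hdac3 had none linked. Among proximal elements 1 of 24 was higher (4.17%, 0.11% to 21.1%, beside 13.3%), at Nampt, a gene of NAD synthesis (3.54 in the authors' deposited table, named after its value was seen). Among distal ones 31 of 38 were higher (81.6%, 65.7% to 92.3%, beside 70.3%). All of these background shares lie inside the intervals. Of the 31 higher distal elements Bhlhe40 and Rora held 7 each, and some of these lie close together, so the elements are not all independent. The element with the smallest p was higher at 7 of the 21 genes, and at 4 of the 10 described above, namely Nr1d1, Per1, Nfil3 and Bhlhe41, beside 43.8% of all 11543 linked genes. No test was made between the lists.

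By size of that element, 8 of these genes led. In the authors' deposited table it was 4.35 at Btrc, a ubiquitin ligase gene (25783 bp from the nearest TSS), and 2.55 at the cryptochrome gene Cry1 (10692 bp). It was lower within 166 bp of a start at the other six: -2.96 at Csnk1e, a kinase gene that acts on PER proteins, -2.68 at Npas2, -2.29 at Sirt1, a deacetylase gene, -2.07 at Clock, -2.04 at Timeless and -2.02 at Per3. Per3 also held 2 higher elements in the authors' deposited table, at 2.73 (6590 bp from its start) and 1.46. Elements of the other direction were listed too in the authors' deposited table at Btrc (-0.65), Cry1 (-1.03), Npas2 (1.00) and Clock (0.82). Csnk1e, Sirt1 and Timeless had no further element.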

How the data were processed

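Per the file headers, the authors derived 1 table of element quantifications on mm10 from the alignments of all 4 replicates; its aligner and caller were not given in the sources used here. Deposited columns used were the log2 fold change, the p-value and the q-value per element, as given, with the element length. All 24232 deposited q-values are those that Benjamini-Hochberg adjustment gives for 114722 tests (relative difference at most 1e-06); tests at a q of 0.01 or more are not analysed here.

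Elements were assigned by their centre to the nearest start of a protein-coding transcript of GENCODE M21 on the 21 chromosomes (24217 elements), leaving out 15 on contigs; sequence came from GRCm38. GC deciles were set over the 22068 linked elements. Matches to 15 recognition sequences were counted on both strands, a palindrome once, and an RORE of the AGGTCA form also holds the half-site AGGTCA. For copies, elements were aligned by minimap2 (version 2.31-r1302, k-mer 15, window 5), counting alignments that cover 90% or more of an element at 95% identity or more; all 27 aligned. Intervals of shares are exact (Clopper-Pearson) at 95%, that of the median comes from binomial order statistics, and all cover counting error only. Counting and assignment were tested on simulated sequences and positions. No test of a difference between sets was made, since elements are not replicates and close neighbours can share fragments. Members, lists and recognition sequences were chosen with earlier results of these data known. All 10 genes are named with all their elements, except for 1 element that is counted but not reported singly or drawn. Of the other clock genes, the 8 with the largest absolute log2 fold change of their smallest-p element are named.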

Additional observations from a re-analysis of the deposited data

How the results depend on the processing

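The shares and the median were recomputed with links within 20 kb, within 50 kb or without a limit, with starts of any gene type, with a q-value under 0.001, with changes under 1 (absolute log2) left out, with 1 value per gene, without each gene in turn and, for the position classes, with promoter limits of 500 bp and 2 kb. Of 54 values, 49 stayed within the interval of the reported value, or within 1.5 times a reported count. The median of the 27 elements stayed negative throughout, from -1.01 to -0.56. No linked element has a value between -0.3861 and 0.3708, so the sign of the median only repeats that lower elements were more numerous. The proximal share moved from 9.09% without Nr1d1 to 27.3% without Tef, so that 2 of its 3 higher elements come from Nr1d1. For the other clock genes the share was 37.2% with links within 20 kb and 33.3% with 1 value per gene, against 51.6%. In the central 300 bp, 3 elements held a D-box, 1 a RORE and 2 an AP-1 match, against 5, 3 and 7 in whole elements, over fewer elements and shorter sequence. With starts of any gene type 21 elements remained. No replicate could be left out, since the table has no values per replicate. No paired analysis was possible because the series has 1 group. Depth is unknown, so elements that were not listed cannot be read as inactive.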
